A study of Homo sapiens with 6 samples.

Results

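The enzymes and chaperones that hydroxylate and fold procollagen in the endoplasmic reticulum (ER) were examined in 786-O cells in which PLOD2 had been targeted. The genes were chosen by name, with earlier results of these data known. They were the prolyl 4-hydroxylase subunits P4HA1, P4HA2, P4HA3 and P4HB, and the prolyl 3-hydroxylases P3H1, P3H2 and P3H3. With the 3-hydroxylases went their partners CRTAP and PPIB, and the collagen chaperone SERPINH1 was added. All 10 were found, once each, among the 58395 genes of the deposited table. 786-O is an established human line of clear cell renal carcinoma and carries no functional VHL, the gene whose product marks hypoxia-inducible factors for degradation. Libraries were made from 3 samples of sgPLOD2 cells, in which PLOD2 had been ablated with CRISPR/Cas9, and from 3 samples of sgControl cells, and both groups were grown in the same serum-containing medium. Whether the cells of either group were a clone or a pool, and whether the replicates were separate cultures, is not given in the sources used here. All p-values thus rest on the spread among these 6 libraries, and that spread may be technical.

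Collagen chains are modified while they are still unfolded in the ER. Prolyl 4-hydroxylase, built from catalytic alpha subunits (P4HA1, P4HA2 or P4HA3) and the beta subunit P4HB, which is protein disulfide isomerase, hydroxylates prolines and so gives the triple helix its thermal stability. P3H1, CRTAP and the proline isomerase PPIB (cyclophilin B) form a complex that 3-hydroxylates proline in fibrillar collagens, and loss of any of these genes causes recessive osteogenesis imperfecta. P3H2 acts mainly on basement membrane collagen, and P3H3 is known from mice as a partner in a lysyl hydroxylase complex with P3H4. SERPINH1 (HSP47) binds the folded triple helix and accompanies it out of the ER. PLOD2, the targeted gene, encodes lysyl hydroxylase 2, which works on collagen lysines in the same compartment.

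FPKM counts fragments relative to gene length and to the mapped fragments of the library, so levels can be compared between genes. FPKM summed to between 229485 and 238801 in the sgPLOD2 libraries and between 243422 and 268612 in the sgControl libraries, and the absolute depth is unknown. Mitochondrially encoded genes made up 6.01% to 6.72% of FPKM in sgPLOD2 and 6.96% to 12.9% in sgControl, with the highest share in sgControl replicate 1. The targeted gene PLOD2 had 5.98, 10.1 and 6.64 FPKM in sgPLOD2 and 26.8, 25.7 and 21.5 FPKM in sgControl. Of 9 markers of 786-O cells and renal carcinoma, 8 had a mean of at least 1 FPKM. The remaining marker, CA9, had 0.317, 0.368 and 0.285 FPKM in sgPLOD2 and was listed at 0 in every sgControl library. In that list 3 genes were called higher, against 29.5% of all tested genes, and 2 lower, against 23.5%. EPAS1 rose by 0.98, CDH6 by 0.61 and NNMT by 0.35 on the log2 scale (limma adjusted p = 0.000282, 0.00286 and 0.0190). Among the falls was PAX2, by 0.33 (limma adjusted p = 0.0191). Summed fibroblast markers reached 0.325 to 0.483 FPKM in sgPLOD2 and 0.263 to 0.509 FPKM in sgControl, with DCN listed at 0 throughout. Summed endothelial markers stayed at 0.0911 to 0.161 FPKM in sgPLOD2 and 0.0290 to 0.0447 FPKM in sgControl, with VWF listed at 0 in all libraries. Of 6 leukocyte markers only CD68, a lysosomal gene not limited to leukocytes, reached 1 FPKM (5.86 ± 0.56 FPKM in sgPLOD2 and 15.8 ± 3.84 FPKM in sgControl; SD, n = 3 each), and CD3E was listed at 0.

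The 250 bases before the RefSeq start, which can lie inside the longer gene bounds of the deposited table, were read for the genes that the next paragraphs turn on, so that the regulatory sequence stands beside the values. The RefSeq table (GRCh38.p14) held such windows for 9 of the 10 genes, without P4HA3. Those of 3 genes that fell and 2 that rose in sgPLOD2 are shown, each 5′ to 3′ on the strand of its gene. Capitals mark CCAAT, the hypoxia-inducible factor core (ACGTG or GCGTG) and a heat shock element (GAA, TTC and GAA, or TTC, GAA and TTC, with 2 bases of any kind between units), all searched on both strands.
P4HB, chr17:81860536-81860785, minus strand: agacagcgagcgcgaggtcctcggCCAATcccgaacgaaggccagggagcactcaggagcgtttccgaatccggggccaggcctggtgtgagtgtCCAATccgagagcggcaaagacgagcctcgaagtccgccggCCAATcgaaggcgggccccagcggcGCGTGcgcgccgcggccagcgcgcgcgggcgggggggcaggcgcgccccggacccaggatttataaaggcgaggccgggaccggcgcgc
P3H3, chr12:6828157-6828406, plus strand: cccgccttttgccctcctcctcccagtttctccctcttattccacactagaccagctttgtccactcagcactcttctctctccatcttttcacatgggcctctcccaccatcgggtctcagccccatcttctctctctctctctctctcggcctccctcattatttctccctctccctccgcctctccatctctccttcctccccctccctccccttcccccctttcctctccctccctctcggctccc
P3H1, chr1:42767029-42767278, minus strand: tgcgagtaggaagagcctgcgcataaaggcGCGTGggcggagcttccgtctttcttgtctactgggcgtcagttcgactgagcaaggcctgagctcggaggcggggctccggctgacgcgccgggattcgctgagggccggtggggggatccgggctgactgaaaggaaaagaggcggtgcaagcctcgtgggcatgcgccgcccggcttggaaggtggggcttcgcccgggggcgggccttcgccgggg
SERPINH1, chr11:75562003-75562252, plus strand: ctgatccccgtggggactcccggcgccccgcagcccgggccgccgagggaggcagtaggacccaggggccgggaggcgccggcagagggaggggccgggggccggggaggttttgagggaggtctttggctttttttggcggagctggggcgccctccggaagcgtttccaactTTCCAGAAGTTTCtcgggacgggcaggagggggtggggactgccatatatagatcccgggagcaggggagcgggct
CRTAP, chr3:33113764-33114013, plus strand: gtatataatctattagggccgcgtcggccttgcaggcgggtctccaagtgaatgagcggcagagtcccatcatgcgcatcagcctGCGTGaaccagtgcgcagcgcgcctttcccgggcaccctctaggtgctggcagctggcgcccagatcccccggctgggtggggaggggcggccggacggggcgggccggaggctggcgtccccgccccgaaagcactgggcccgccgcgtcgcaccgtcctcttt
The P4HB window held 3 CCAAT matches and 1 hypoxia-inducible factor core, P3H1 and CRTAP held 1 core each, and P3H3 held no match. SERPINH1 held the heat shock element, starting 76 bases before the start, and none of the marked motifs overlapped another in these windows. A second annotated start of SERPINH1, not shown, had 3 hypoxia-inducible factor cores before it. Over all 11 windows of the members, 8 held the hypoxia-inducible factor core, 5 CCAAT and 1 the heat shock element. Windows of P3H2, PPIB and P4HA2, which were not called in the test below, were among those with a match. Among 35116 windows of all genes, 32.0% held CCAAT, 43.2% the hypoxia-inducible factor core and 0.441% the heat shock element. None of the members' windows held the ER stress element (CCAAT and CCACG with 9 bases of any kind between them), which 0.074% of all windows held. An ER stress element contains CCAAT by its make-up. These matches describe letters and not bound sites. HIF1A, which encodes a hypoxia-inducible factor subunit, itself differed between the groups. It had 39.1, 38.4 and 35.6 FPKM in sgPLOD2 and 0.311, 0.539 and 0.409 FPKM in sgControl (log2 fold change 4.77, limma adjusted p = 9.93e-07). Its part in the values of the members was not tested.

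The hydroxylase genes P4HB, P3H3 and P3H1 fell in every setting tried, whereas the chaperone SERPINH1 and the P3H1 partner CRTAP rose. The calls of SERPINH1, CRTAP and P4HA1 were lost in some of the settings. Relative to the median of the genes within 5 Mb, CRTAP was called lower (log2 fold change -0.24, limma adjusted p = 0.0347). P4HB, P3H3, P3H1 and P4HA1 fell in sgPLOD2, P4HA2, P3H2 and PPIB were not called, and P4HA3, close to absent in sgControl, was higher in every sgPLOD2 library but lay under the filter for the test. Genes were tested with limma on log2(FPKM + 1), with p-values adjusted by the Benjamini-Hochberg method over all 10469 genes that averaged at least 1 FPKM. Of the 9 members that passed this filter, 4 fell and 2 rose at an adjusted p under 0.05, while among all tested genes 23.5% were called lower and 29.5% higher, or 52.9% in either direction. With so much of the table called, a call by itself does not set these genes apart. The median log2 fold change was -0.24 over the 9 members and 0.06 over all tested genes. Of all calls 55.7% were higher as deposited and 66.8% under TPM (each library rescaled to the same total), which moved the median of all genes to 0.20. Under median-of-ratios scaling the share was 47.1% and the median -0.02, and under quantile normalization they were 50.3% and 0.01. Fewer cells with a transcript and less of it per cell cannot be told apart in such bulk libraries. The groups did not overlap for 6 of the 9 tested members, 2 higher and 4 lower in sgPLOD2, against 62.7% of all tested genes (34.7% higher and 28.0% lower), nor for P4HA3, which was not tested. The exact permutation test (2-sided) cannot go below p = 0.1 with 3 libraries against 3, and this value was reached by each of the 6 called members and by P4HA3.

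**Figure D1:**
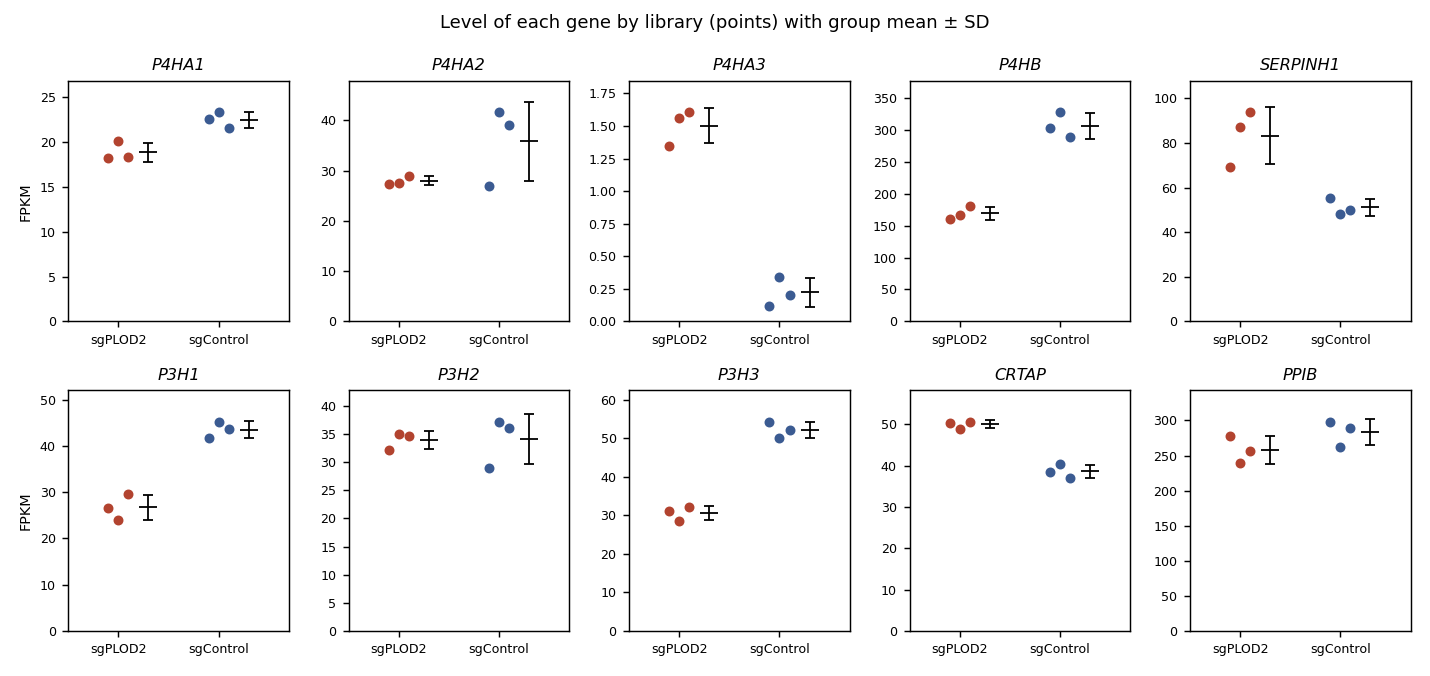
FPKM of each gene (vertical axes, each starting at 0) in the 3 sgPLOD2 libraries (red points) and the 3 sgControl libraries (blue points), with the group mean ± SD beside them. P4HB, P3H1, P3H3 and P4HA1 lay lower in every sgPLOD2 library than in any sgControl library, SERPINH1, CRTAP and P4HA3 lay higher, and P4HA2, P3H2 and PPIB overlapped.

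Among the tested 4-hydroxylase subunits, the shared beta subunit had the largest fall. P4HB (ENSG00000185624; GRCh38, chr17:81843161-81860624, minus strand), whose product also serves as a general disulfide isomerase, had 160.3, 166 and 180.3 FPKM in sgPLOD2, against 302, 327 and 288 FPKM in sgControl. The groups were far apart, and the sgPLOD2 mean was 55.3% of the sgControl mean. The log2 fold change was -0.85 ± 0.09 (SE; limma adjusted p = 0.000352), and the fall kept its call in all settings tried. P4HB was the 138th most abundant of the tested genes by its mean over all libraries.

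The alpha subunits P4HA1 and P4HA2 had smaller differences than P4HB. P4HA1 (ENSG00000122884; chr10:73007217-73096974, minus strand), the widely expressed alpha subunit and a known hypoxia-inducible gene, had 18.3, 20.1 and 18.3 FPKM in sgPLOD2 and 22.6, 23.3 and 21.6 FPKM in sgControl. Every sgPLOD2 library was lower than every sgControl library, but by a small step, to 83.9% of the sgControl mean. The difference was -0.24 ± 0.08 on the log2 scale (SE; limma adjusted p = 0.0394). The call was lost whichever library was left out (adjusted p = 0.0520 to 0.122), and under TPM, where the log2 fold change was -0.12 (adjusted p = 0.332).

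P4HA2 (ENSG00000072682; chr5:132191838-132295315, minus strand), the second alpha isoform, had 27.4, 27.6 and 29.0 FPKM in sgPLOD2 and 26.8, 41.6 and 39.0 FPKM in sgControl. The 3 sgPLOD2 libraries agreed closely, whereas sgControl replicate 1 lay with them and apart from the other sgControl libraries. P4HA2 was not called (log2 fold change -0.32 ± 0.16, SE; limma adjusted p = 0.131). Without sgControl replicate 1, the library with the highest mitochondrial share, the log2 fold change was -0.51 and the adjusted p was 0.00213. The part of that library's mitochondrial share in this value was not tested.

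P4HA3 (ENSG00000149380; chr11:74235801-74311640, minus strand), the third and least expressed alpha isoform, had 1.35, 1.56 and 1.60 FPKM in sgPLOD2, against 0.120, 0.342 and 0.205 FPKM in sgControl. The groups did not overlap, and the ratio of means was 6.76. The mean over all libraries was 0.863 FPKM, under the filter, so P4HA3 was not among the 10469 genes tested. With no filter on low values, limma gave a log2 fold change of 1.04 ± 0.10 (SE) on the log2(FPKM + 1) scale and an adjusted p of 0.00156. The authors' deposited table gave P4HA3 a log2 fold change of 2.65 with a standard error of 0.34 and an adjusted p of 1.14e-13. PPME1, which overlaps P4HA3 on the opposite strand, averaged 5.51 ± 0.93 FPKM in sgPLOD2 and 3.05 ± 0.37 FPKM in sgControl (SD, n = 3 each), and without a stated strand setting reads of both genes cannot be told apart.

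Summed over P4HA1, P4HA2 and P4HA3, alpha subunit FPKM were 47.0, 49.3 and 48.9 in sgPLOD2 and 49.6, 65.2 and 60.8 in sgControl. P4HA3 made up 3.10% ± 0.21 of that sum in sgPLOD2 and 0.368% ± 0.143 in sgControl (SD, n = 3 each), so P4HA1 and P4HA2 supplied nearly all of it in both groups. P4HA1 made up 39.0% ± 1.73 in sgPLOD2 and 39.0% ± 5.77 in sgControl. P4HB exceeded the summed alpha subunits 3.49 ± 0.17 times in sgPLOD2 and 5.28 ± 0.72 times in sgControl, with no overlap between groups. The excess of beta over alpha mRNA was thus smaller in sgPLOD2, in a ratio given as a description with no test.

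Among the 3-hydroxylases and their partners, P3H1 and P3H3 fell, P3H2 and PPIB were not called, and CRTAP rose. P3H3 (ENSG00000110811; chr12:6828407-6839847, plus strand) had 31.1, 28.6 and 32.2 FPKM in sgPLOD2, against 54.2, 50.0 and 52.2 FPKM in sgControl. Its log2 fold change was -0.75 ± 0.08 (SE; limma adjusted p = 0.000425), and the sgPLOD2 mean was 58.8% of the sgControl mean. P3H1 (ENSG00000117385; chr1:42746335-42767084, minus strand), the catalytic member of the complex with CRTAP and PPIB, had 26.5, 24.0 and 29.5 FPKM in sgPLOD2, against 41.6, 45.2 and 43.6 FPKM in sgControl. All sgPLOD2 libraries lay below all sgControl libraries for both genes. P3H1 had a log2 fold change of -0.69 ± 0.10 (SE) and a limma adjusted p of 0.00117. The falls of P3H1 and P3H3 kept their calls in all settings tried.

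P3H2 (ENSG00000090530; chr3:189956728-190122437, minus strand) had 32.2, 34.9 and 34.7 FPKM in sgPLOD2 and 29.0, 37.2 and 36.1 FPKM in sgControl. The groups overlapped, and the log2 fold change of 0.00 ± 0.11 (SE) was not called (limma adjusted p = 0.992). With the chromosome median removed as a fixed value, whose error the test does not carry, it was -0.33 (limma adjusted p = 0.0437). The 3 enzyme genes summed to 91.3 ± 4.64 FPKM in sgPLOD2 and 129.7 ± 4.24 FPKM in sgControl (SD, n = 3 each). P3H2 made up 37.2% ± 2.32 of that sum in sgPLOD2 and 26.2% ± 2.63 in sgControl, where P3H3 was the largest part at 40.3% ± 2.91.

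CRTAP (ENSG00000170275; chr3:33114014-33147773, plus strand), the noncatalytic helper of P3H1, had 50.4, 48.9 and 50.6 FPKM in sgPLOD2, against 38.4, 40.3 and 37.1 FPKM in sgControl. Libraries agreed closely within each group, and the groups did not overlap. The log2 fold change was 0.37 ± 0.07 (SE; limma adjusted p = 0.00561), whereas the authors' deposited table gave CRTAP an adjusted p of 0.0560. The rise of CRTAP was not larger than the median of the genes around it. CRTAP was also set against the median of its neighbours within 5 Mb, a comparison chosen after seeing the data. The median was subtracted as a fixed value, as in all such settings, so p-values carry no error of it. The log2 fold change of CRTAP then turned to -0.24 (limma adjusted p = 0.0347). With the chromosome median removed it was 0.03 (adjusted p = 0.740), and after removal of a trend on GC content and transcript length it was 0.01 (adjusted p = 0.936).

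PPIB (ENSG00000166794; chr15:64155817-64163022, minus strand) had 278, 239 and 257 FPKM in sgPLOD2 and 298, 262 and 289 FPKM in sgControl. The groups overlapped, and the log2 fold change of -0.14 ± 0.09 (SE) was not called (limma adjusted p = 0.261). Relative to its neighbours within 5 Mb it was -0.29, with an adjusted p of 0.0403.

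Within the P3H1 complex the proportions of mRNA differed between groups. P3H1 over CRTAP was 0.526, 0.491 and 0.584 in sgPLOD2 and 1.08, 1.12 and 1.18 in sgControl. P3H1 therefore exceeded CRTAP in every sgControl library and was below it in every sgPLOD2 library. P3H1 over PPIB averaged 0.104 ± 0.010 in sgPLOD2 and 0.154 ± 0.017 in sgControl, while CRTAP over PPIB averaged 0.194 ± 0.012 in sgPLOD2 and 0.137 ± 0.015 in sgControl (SD, n = 3 each). PPIB mRNA was the most abundant of the complex in all 6 libraries. These ratios were not tested.

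SERPINH1 rose most among the tested members. SERPINH1 (ENSG00000149257; chr11:75562056-75572783, plus strand) had 69.2, 87.0 and 93.7 FPKM in sgPLOD2, against 55.4, 48.1 and 50.0 FPKM in sgControl. All sgPLOD2 libraries were higher, but they varied more among themselves (SD 12.7) than the sgControl libraries (SD 3.79). The ratio of means was 1.63 and the log2 fold change was 0.68 ± 0.13 (SE; limma adjusted p = 0.00387). Relative to its neighbours within 5 Mb the log2 fold change was 0.35, with an adjusted p of 0.0610. Per summed FPKM of 28 collagen chain genes, SERPINH1 averaged 0.174 ± 0.015 in sgPLOD2 and 0.124 ± 0.017 in sgControl (SD, n = 3 each), without overlap.

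**Figure D2:**
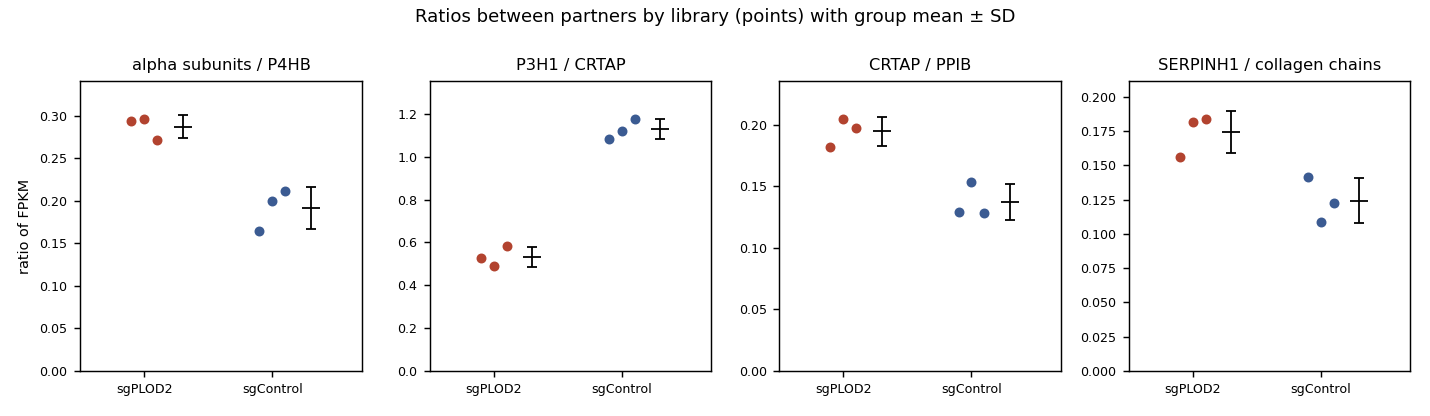
Ratios of FPKM between partners (vertical axes, each starting at 0) in the 3 sgPLOD2 libraries (red points) and the 3 sgControl libraries (blue points), with the group mean ± SD. P3H1 over CRTAP lay at 0.491 to 0.584 in sgPLOD2 and 1.08 to 1.18 in sgControl, while summed alpha subunits over P4HB, CRTAP over PPIB and SERPINH1 over summed collagen chains were higher in every sgPLOD2 library than in any sgControl library.

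The order of levels differed between groups. In sgPLOD2 the order by mean was PPIB, P4HB, SERPINH1, CRTAP, P3H2, P3H3, P4HA2, P3H1, P4HA1 and P4HA3. Of these neighbours, P3H2 and P3H3, P3H3 and P4HA2, and P4HA2 and P3H1 overlapped in their libraries. In sgControl the order was P4HB, PPIB, P3H3, SERPINH1, P3H1, CRTAP, P4HA2, P3H2, P4HA1 and P4HA3. There P4HB and PPIB, P3H3 and SERPINH1, CRTAP and P4HA2, and P4HA2 and P3H2 overlapped. P4HB and PPIB stood above the others in both groups, with means of 169 and 258 FPKM in sgPLOD2 and 306 and 283 FPKM in sgControl.

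The neighbours of several members moved with them along their chromosomes. The shares over all tested genes were 23.5% called lower and 29.5% higher. Around P4HB, 41 of 75 tested genes within 5 Mb were called lower and 2 higher, with a median log2 fold change of -0.35. Relative to that median, P4HB had a log2 fold change of -0.50 (limma adjusted p = 0.00430). Around CRTAP, 17 of 23 were called higher, and the median was 0.61. Around SERPINH1, 30 of 57 were called higher and 4 lower, with a median of 0.33. The window of P4HA3 on the same chromosome overlapped it, with 33 of 64 called higher, 5 lower and a median of 0.33 as well. Around P4HA1, which fell, 20 of 63 were called higher and 11 lower, with a median of 0.14. P3H1 and P3H3 lay among genes with medians of -0.03 and -0.05. Around P3H1, 26 of 85 were called lower and 13 higher, and around P3H3 19 of 66 lower and 12 higher. Relative to these medians, the log2 fold changes of P3H1 and P3H3 were -0.66 (adjusted p = 0.00186) and -0.70 (adjusted p = 0.000757). These p-values treat the neighbour medians as fixed and do not test a gene against the spread among its neighbours. Regional differences and an effect of PLOD2 loss cannot be told apart in this design.

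**Figure D3:**
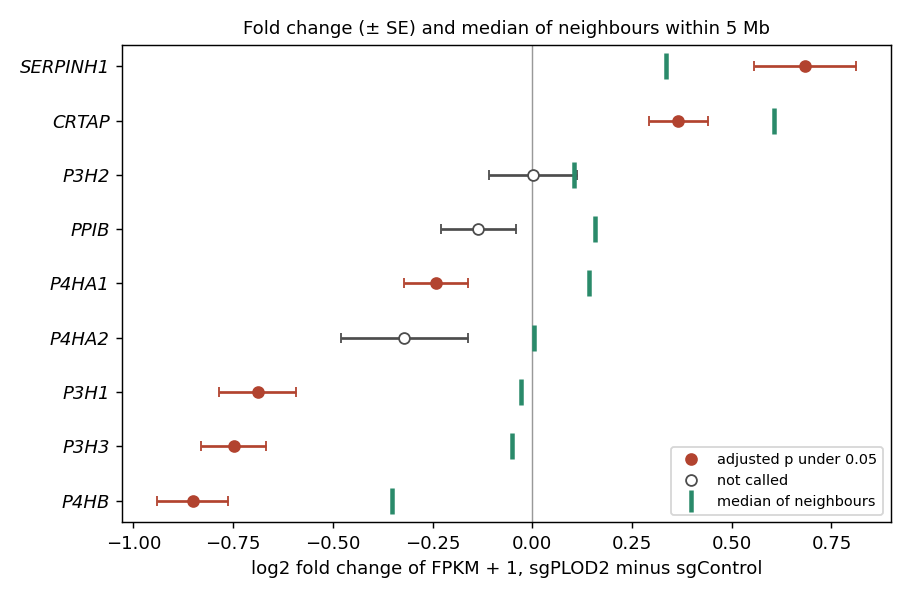
Log2 fold change of FPKM + 1, sgPLOD2 minus sgControl, with its SE for the 9 tested genes (filled red, adjusted p under 0.05; open, not called), and the median fold change of tested genes within 5 Mb (green bars). P3H1 and P3H3 lie far below the medians of their neighbours. P4HB at -0.85 lies below a median of -0.35, and CRTAP at 0.37 lies below a median of 0.61.

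In the authors' deposited table, which tests a larger set of genes, 4 members were lower and 2 higher at an adjusted p under 0.05, against 17.0% lower and 18.5% higher (35.5% in either direction) among all 22870 genes with such a value. The members lower there were P4HB, P3H3, P3H1 and P4HA1, and the members higher were P4HA3 and SERPINH1. The log2 fold changes in the authors' deposited table were -0.95 for P4HB, -0.86 for P3H3, -0.80 for P3H1, -0.35 for P4HA1 and 0.61 for SERPINH1. In the authors' deposited table, P4HA2 had an adjusted p of 0.0540, PPIB of 0.207 and P3H2 of 0.693.

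Genes that work beside the prolyl hydroxylases on procollagen were followed in lists. Their counts stand beside 29.5% called higher and 23.5% called lower among all tested genes. In the list of lysyl modification genes and their partners, 5 of 6 tested genes fell, with a median log2 fold change of -0.59. PLOD3, a lysyl hydroxylase that also glycosylates collagen, averaged 35.9 ± 1.66 FPKM in sgPLOD2 and 74.6 ± 2.73 FPKM in sgControl (SD, n = 3 each; log2 fold change -1.03, limma adjusted p = 8.36e-05). PLOD1, which hydroxylates helical lysines, fell by 0.61 on the log2 scale. FKBP10, a proline isomerase that assists lysyl hydroxylase 2, averaged 48.5 ± 9.27 FPKM in sgPLOD2 and 91.7 ± 6.22 FPKM in sgControl and fell by 0.92. P3H4, the partner of P3H3 in mice, averaged 16.5 ± 0.88 FPKM in sgPLOD2 and 25.0 ± 0.94 FPKM in sgControl and fell by 0.57. TMEM38B fell as well, while the galactosyltransferase COLGALT1 was not called (log2 fold change 0.03).

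Of 16 general ER folding helpers, 7 rose and 1, SDF2L1, fell, with a median log2 fold change of 0.27. Among all tested genes 29.5% were called higher and 23.5% lower. HSP90B1 (GRP94), an ER chaperone of the HSP90 family, averaged 152 ± 15.1 FPKM in sgPLOD2 and 86.3 ± 5.43 FPKM in sgControl (SD, n = 3 each; log2 fold change 0.81, limma adjusted p = 0.000716). The proline isomerases PPIC and FKBP14 rose by 0.47 and 0.48, and ERO1A, the oxidase that recharges protein disulfide isomerase, rose by 0.53. The count of rises fell to 3 without sgPLOD2 replicate 1 and to 3 without sgPLOD2 replicate 2. SDF2L1 lost its call under TPM, under quantile normalization, without sgControl replicate 3, without sgPLOD2 replicate 2, after removal of the GC and length trend and relative to neighbours. The count of rises was 4 with no filter on low values and 4 relative to neighbours within 5 Mb, and 2 after removal of the GC and length trend.

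Of 16 tested genes of procollagen export and propeptide removal, 6 rose and 3 fell (median log2 fold change 0.15). These counts lie near the shares over all tested genes, 29.5% called higher and 23.5% lower. PCOLCE2, an enhancer of the C-propeptide protease, averaged 5.99 ± 0.55 FPKM in sgPLOD2 and 2.35 ± 0.65 FPKM in sgControl, and CREB3L1, a transcription factor for secretory and collagen genes, 2.09 ± 0.14 FPKM in sgPLOD2 and 1.06 ± 0.29 FPKM in sgControl (SD, n = 3 each). These rose by 1.08 and 0.59 on the log2 scale (limma adjusted p = 0.00136 and 0.00484). The protease gene FURIN and KDELR3, a receptor that returns ER proteins, fell by 0.57 and 0.59. After removal of the GC and length trend 2 rose and 4 fell, and relative to neighbours within 5 Mb 3 rose and 5 fell. At a minimum mean of 5 FPKM, 2 of 11 tested genes rose and 3 fell.

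The substrates themselves went both ways. Of 28 collagen chain genes only 12 passed the filter, of which 6 rose and 5 fell, with a median log2 fold change of 0.29. Over all tested genes 29.5% were called higher and 23.5% lower. COL6A1 averaged 82.2 ± 5.55 FPKM in sgPLOD2 and 35.8 ± 1.93 FPKM in sgControl (SD, n = 3 each; log2 fold change 1.18), while COL1A1 and COL12A1 rose by 1.41 and 1.59 at low levels. COL5A2 averaged 0.129 ± 0.015 FPKM in sgPLOD2 and 4.72 ± 1.42 FPKM in sgControl (log2 fold change -2.31, limma adjusted p = 0.000106). COL1A2, the partner chain of COL1A1 in type I collagen, stayed under 0.02 FPKM in all libraries. The falls stayed at 5 only under median-of-ratios scaling and after removal of the GC and length trend. They numbered 3 or 4 in every other alternative. There were 3 under TPM, with or without mitochondrial and ribosomal protein genes, and at a pseudocount of 0.1 or 0.5. Leaving out sgControl replicate 2 or 3 or sgPLOD2 replicate 3 also gave 3. COL4A1 and COL8A1, among the falls, were close to the threshold (limma adjusted p = 0.0497 and 0.0484). Summed over all 28 genes, collagen FPKM were 443, 479 and 509.5 in sgPLOD2 and 391.5, 443 and 407 in sgControl, so the sums overlapped. The highest mean levels were those of COL6A2, COL6A1 and COL6A3 in sgPLOD2, and those of COL4A2, COL18A1 and COL6A2 in sgControl.

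Other prolyl hydroxylases that use 2-oxoglutarate were compared as well. EGLN3, a sensor of oxygen that marks hypoxia-inducible factor for degradation, averaged 0.674 ± 0.067 FPKM in sgPLOD2 and 6.88 ± 2.13 FPKM in sgControl (SD, n = 3 each; log2 fold change -2.20, limma adjusted p = 0.000152). P4HTM, a transmembrane prolyl hydroxylase of the ER, averaged 1.20 ± 0.22 FPKM in sgPLOD2 and 2.21 ± 0.08 FPKM in sgControl and fell by 0.55. EGLN1 and EGLN2 were not called (limma adjusted p = 0.247 and 0.152).

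**Figure D4:**
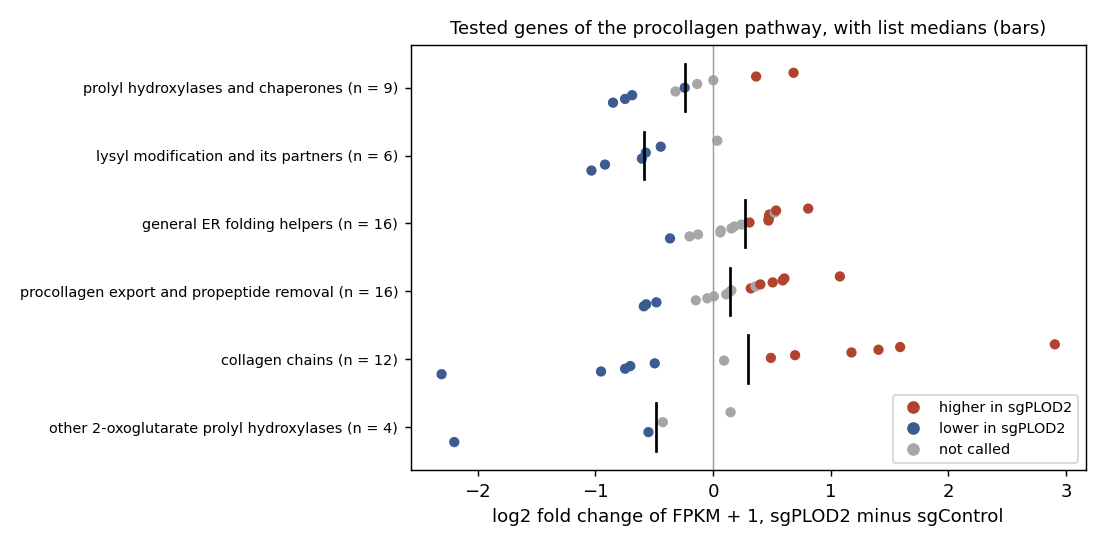
Log2 fold change of FPKM + 1, sgPLOD2 minus sgControl, of every tested gene in 6 lists (red, higher; blue, lower; grey, not called; black bars, list medians). Medians lay at -0.24 for the prolyl hydroxylases and chaperones, -0.59 for lysyl modification genes, 0.27 for ER folding helpers and 0.29 for collagen chains.

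Genes whose levels followed a member most closely over the 6 libraries were taken by Pearson's r of log2(FPKM + 1), as a description. For P4HB these were ABCA2 (r = 0.999), FLNC (r = 0.998) and LAMB3 (r = 0.998), all lower in sgPLOD2, and 294 tested genes had an r of at least 0.98. FLNC, an actin cross-linker, had 63.7, 71.1 and 79.0 FPKM in sgPLOD2 and 149.6, 171 and 147 FPKM in sgControl. For SERPINH1 they were UTP15 (r = 0.994), CD24 (r = 0.994) and NAA50 (r = 0.990), and 14 genes reached 0.98. CD24, a surface glycoprotein, had 52.3, 73.6 and 93.6 FPKM in sgPLOD2 and 35.3, 27.0 and 25.2 FPKM in sgControl. Its sgPLOD2 libraries stood in the same order as those of SERPINH1, a likeness for which it was chosen. With libraries of 2 groups, such values mostly follow the difference between groups.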

How the data were processed

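RNA from 786-O cells was sequenced as 3 sgPLOD2 and 3 sgControl libraries, grouped by their titles. The submitters' processing notes name CASAVA, HISAT2 2.1.0, StringTie 1.3.4 and GRCh38, without roles, and the strand setting is not given in the sources used here. Per the file headers, the authors deposited 1 FPKM value per gene and library, with no scaling between libraries recorded. The authors' deposited table also held their own comparison (a mean normalized count as a signal over all libraries, log2 fold changes with standard errors, a test score and p-values).

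Tests were made on log2(FPKM + 1), a scale that understates changes of low genes, by lmFit and eBayes with an intensity trend (limma 3.58.1, R 4.3.3). They were 2-sided and covered 10469 genes whose mean reached 1 FPKM. Exact permutation tests used scipy 1.17.1, figures matplotlib 3.10.9. Printed gene starts and ends are those of the deposited table. Chromosomes, strands, neighbours, GC content and length of the longest transcript came from GENCODE release 29 on GRCh38, where the start of P4HB, P3H3, CRTAP and PPIB differs. The test was tried on simulated data beforehand. It recovered 43.3% of planted log2 changes of 0.5, 68.7% of those of 1 and 92.4% of those of 2. Of its calls 6.21% were false. Far fewer genes were changed there than were called in the real data.

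The members and lists were chosen with earlier results of these data known. The text names all members, PLOD2, the 4 called genes of each list with the smallest adjusted p, the 3 genes most like the member that rose or fell most, and defining markers. Other names were chosen after their values were seen. These were COLGALT1, TMEM38B, SDF2L1, PPME1, EGLN1, EGLN2, HIF1A, the highest collagen chains, COL4A1, COL8A1, COL1A2, P3H2-AS1 and SLC22A4. Alternatives were other pseudocounts, filters, scalings and variance models, a replicate block, leaving out each library, and removal of chromosome medians, of a GC and length trend (mgcv 1.9.3) and of the median of neighbours within 5 Mb (at least 10 of them). The last was chosen after seeing the data. In these removals the median or trend was subtracted as a fixed value, so the p-values carry no error of it.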

Additional observations from a re-analysis of the deposited data

How the results depend on the processing

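P4HB, P3H1 and P3H3 fell and kept their calls in all 20 alternatives, and members called lower numbered 3 to 6. SERPINH1 lost its call in 1 alternative, relative to neighbours within 5 Mb. Members called higher numbered 2, but 3 with no filter, where P4HA3 was tested. They numbered 1 after subtracting chromosome medians and 1 after subtracting the GC and length trend. Relative to neighbours they numbered 0 (limma, where 1 had an unadjusted p under 0.05), and CRTAP turned to -0.24. The calls over all genes moved too. Of 10469 tested genes, 3084 were called higher in the main test, against 2402, 2239 and 2199 in these removals, in that order. Those called lower numbered 2456 in the main test, against 2546, 2413 and 2346. With no filter, 4084 of 28706 genes were called higher and 2895 lower. P3H2 turned to -0.33 (adjusted p = 0.0437) against its chromosome median. P4HA1 lost its call in 10 alternatives. The cause was not tested. At a minimum of 5 FPKM, 1361 genes were called higher against 3084, among 5689 tested. Leaving out 1 library gave 2307 to 3228 genes higher and 1920 to 2572 lower, with 2 members higher throughout and 3 to 4 lower. The replicate number did not pair libraries (correlations of deviations of 0.0135, 0.135 and -0.0491 for equal numbers, and not every library correlated best with its own number). With it as a block, 2984 genes rose, 2335 fell, and P4HA1 was not called (adjusted p = 0.0553). Depth is unknown. The log2 difference of P4HA3 ranged over 0.94 to 2.37, with the highest value at a pseudocount of 0.1.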

Other observations

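A transcript on the opposite strand of P3H2, P3H2-AS1, averaged 0.920 ± 0.086 FPKM in sgPLOD2 and 0.255 ± 0.074 FPKM in sgControl (SD, n = 3 each), under the filter and so not tested, while P3H2 itself was not called. SLC22A4, which overlaps P4HA2 on the opposite strand, averaged 3.04 ± 0.30 FPKM in sgPLOD2 and 3.31 ± 0.33 FPKM in sgControl and was not called (limma adjusted p = 0.475). PPME1, opposite P4HA3, rose by 0.68 on the log2 scale (limma adjusted p = 0.00506).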
